A study of Mus musculus with 2 samples.

Results

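Genes of the notochord and of the embryonic organizer were followed through the return of primed mouse epiblast stem cells to a naive state. The 6 genes T, Noto, Gsc, Shh, Chrd and Nog were taken by symbol from a table of 33963 genes. All 6 had a row and at least 1 read. The organizer is the small group of cells at the front of the primitive streak, called the node in the mouse, which patterns its neighbours and gives rise to the notochord, the rod of mesoderm under the neural tube. T (Brachyury) and Noto are transcription factors of the notochord, and T also marks the streak. Gsc (goosecoid) is a transcription factor of the early organizer and the anterior mesendoderm. Shh (sonic hedgehog) is the ligand by which the notochord patterns the neural tube, and Chrd (chordin) and Nog (noggin) are secreted antagonists that bind bone morphogenetic proteins (BMPs) outside the cell.

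The 5 tagged populations, 129/Ola by the labels, were pooled in a single cDNA library and read by single-cell RNA-seq on BD Rhapsody. Naive mESCs carried a GFP reporter driven by the Rex1 promoter (naive), and primed mEpiSCs were of the Oct4GIP line, kept in FGF2 and Activin A (primed). Oct4GIP cells on feeder fibroblasts (MEFs), which the table can also hold, were treated with the AMPK activator AICAR plus leukemia inhibitory factor until day 8 (d8) or day 16 (d16). Part of the latter were expanded in 2iL, a medium of kinase inhibitors and LIF, over 10 passages (d16+10p). Each population was 1 sample, so the differences below carry counting error alone and could not be set against a spread between cultures.

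In all, 17720 cells gave 307121033 reads, with 3179 to 111822 reads in a cell and population medians of 10185 (d16) to 21551 (d16+10p). The number of cells found differed from the number loaded. The naive tag was on 801 cells and the primed tag on 1826, although 500 cells of each were loaded, against 9627, 4315 and 1151 cells for 9000, 9000 and 1000 loaded of d8, d16 and d16+10p. When the cells were clustered without the 6 genes, into 18 clusters, 515 of the naive cells (64.3%) lay in 1 cluster that was 96.1% naive (cluster 11) and 885 of the d16+10p cells (76.9%) in cluster 7, but 417 of the primed cells (22.8%) lay in the cluster that was 97.2% primed (cluster 12). Levels of the genes other than Noto, and the ratios of T, Shh and Nog in d8 against primed, are therefore also given for these clusters. Other values that rest on the naive or primed tag, among them those of the gene lists, are given by tag and not for these clusters. No cell name occurred under more than 1 tag. Each cell had been assigned to its strongest tag, so this could not check the tag calls.

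T, on chromosome 17 (GRCm38, positions 8434423 to 8442496, plus strand), had 19155 reads in 3912 cells. Shh, on chromosome 5 (28456815 to 28467256, minus strand), had 15995 reads in 4077 cells. Nog, a gene of 1 exon on chromosome 11 (89300638 to 89302332, minus strand), had 9253 reads in 4059 cells. Chrd, on chromosome 16 (20733127 to 20742384, plus strand), had 1950 reads, and Gsc, on chromosome 12 (104471209 to 104473330, minus strand), had 1452. Noto, on chromosome 6 (85423886 to 85428877, plus strand), had 13 reads in 13 cells. All 6 are protein-coding.

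RefSeq promoters (GRCm38.p6) were at hand for 4 of the 6 genes, and are shown because Gsc and Chrd were highest in the same cluster below, T in another, and Noto was hardly read at all. Each is read 5′ to 3′ on the strand of its gene, with CpG dinucleotides in capitals. The stretches shown are chr17:8434173-8434422 (T, plus strand), chr6:85423636-85423885 (Noto, plus), chr12:104473331-104473486 (Gsc, minus, without the bases inside the annotated gene) and chr16:20732877-20733126 (Chrd, plus).
T: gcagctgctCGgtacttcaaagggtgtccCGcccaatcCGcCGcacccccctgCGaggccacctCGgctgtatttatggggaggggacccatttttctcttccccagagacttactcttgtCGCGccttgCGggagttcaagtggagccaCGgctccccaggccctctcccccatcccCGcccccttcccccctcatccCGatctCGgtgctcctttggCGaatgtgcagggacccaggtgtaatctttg
Noto: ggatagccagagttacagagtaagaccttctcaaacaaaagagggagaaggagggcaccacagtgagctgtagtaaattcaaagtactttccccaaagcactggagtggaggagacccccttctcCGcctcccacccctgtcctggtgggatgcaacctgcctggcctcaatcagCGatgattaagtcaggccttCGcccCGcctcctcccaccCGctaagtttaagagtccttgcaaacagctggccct
Gsc: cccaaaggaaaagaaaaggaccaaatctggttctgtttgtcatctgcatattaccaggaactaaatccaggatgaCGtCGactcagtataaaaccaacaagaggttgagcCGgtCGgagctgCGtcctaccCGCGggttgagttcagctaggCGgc
Chrd: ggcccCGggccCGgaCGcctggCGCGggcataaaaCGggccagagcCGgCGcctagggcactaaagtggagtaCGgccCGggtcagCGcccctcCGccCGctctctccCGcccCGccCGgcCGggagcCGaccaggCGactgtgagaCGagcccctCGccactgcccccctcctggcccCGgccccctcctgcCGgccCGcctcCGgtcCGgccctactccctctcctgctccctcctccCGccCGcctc
In the 250 bases before the RefSeq start, Chrd had 28 CpGs, Gsc 22, T 14 and Noto 5, beside a median of 6 over 32851 promoters (quartiles 2 and 16). For Gsc, the 156 of these bases that lie outside the annotated gene, shown above, held 8. Noto, the gene with almost no reads, was near the median, and Chrd had more CpGs than 92.4% of promoters. A T-box motif (AGGTGTGA), a forkhead motif (TGTTTAC), a Gli motif (TGGGTGGTC), a homeodomain motif (TAATTA) and a bicoid-type homeodomain motif (TAATCC) were searched on both strands of the 300-base windows from 250 before to 50 after the start. None of these letters occurred in any of the 4 windows, against 1.28%, 3.65%, 0.253%, 5.29% and 7.06% of all promoters.

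The level of a gene was its summed reads per 1000000 reads of the population (CPM), and levels were compared within a gene and not between genes. T was highest in primed cells among the 5 populations. Its level was 30.4 CPM in naive (95% interval 27.9 to 33.2), 101.5 in primed (97.8 to 105), 73.9 in d8 (72.7 to 75.2), 34.5 in d16 (32.98 to 36.1) and 22.0 in d16+10p (20.2 to 23.8). Intervals are exact Poisson intervals and, since amplified reads are not independent molecules, cover counting error only. The order was primed, d8, d16, naive and d16+10p, and d16 and naive were the neighbours whose intervals overlapped.

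Noto was at the limit of detection throughout. It had 6 reads in d8, 3 each in d16 and d16+10p, 1 in primed and 0 in naive cells, never more than 1 in a cell. In naive cells 0 of 801 had a read, which allows a share of up to 0.375% when the limit is set at 3 cells. A d8 level of 0.033 CPM (0.012 to 0.073) was not distinguishable from those of the other populations.

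Gsc was low in all populations, at 3.9 CPM in naive (3.0 to 4.9), 5.6 in primed (4.8 to 6.6), 5.4 in d8 (5.0 to 5.7), 2.7 in d16 (2.3 to 3.2) and 4.3 in d16+10p (3.5 to 5.1). Primed and d8 were highest and d16 lowest, but each population overlapped its neighbour in this order.

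Shh, the ligand, was highest in d16. Its level was 27.3 CPM in naive (24.8 to 29.8), 46.2 in primed (43.7 to 48.8), 55.3 in d8 (54.2 to 56.4), 67.2 in d16 (65.1 to 69.4) and 20.6 in d16+10p (18.9 to 22.4). No intervals overlapped, so the order was d16, d8, primed, naive and d16+10p.

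Of the antagonists, Nog was at 15.3 CPM in naive (13.5 to 17.2), 23.2 in primed (21.5 to 25.1), 35.0 in d8 (34.1 to 35.9), 31.2 in d16 (29.7 to 32.7) and 11.7 in d16+10p (10.4 to 13.0), with no overlap of intervals. Chrd was at 3.8 CPM in naive (2.9 to 4.8), 7.9 in primed (6.9 to 9.0), 6.9 in d8 (6.5 to 7.3), 6.1 in d16 (5.4 to 6.7) and 3.3 in d16+10p (2.6 to 4.0). For Chrd, primed and d8, d8 and d16, and naive and d16+10p could not be separated.

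**Figure D1:**
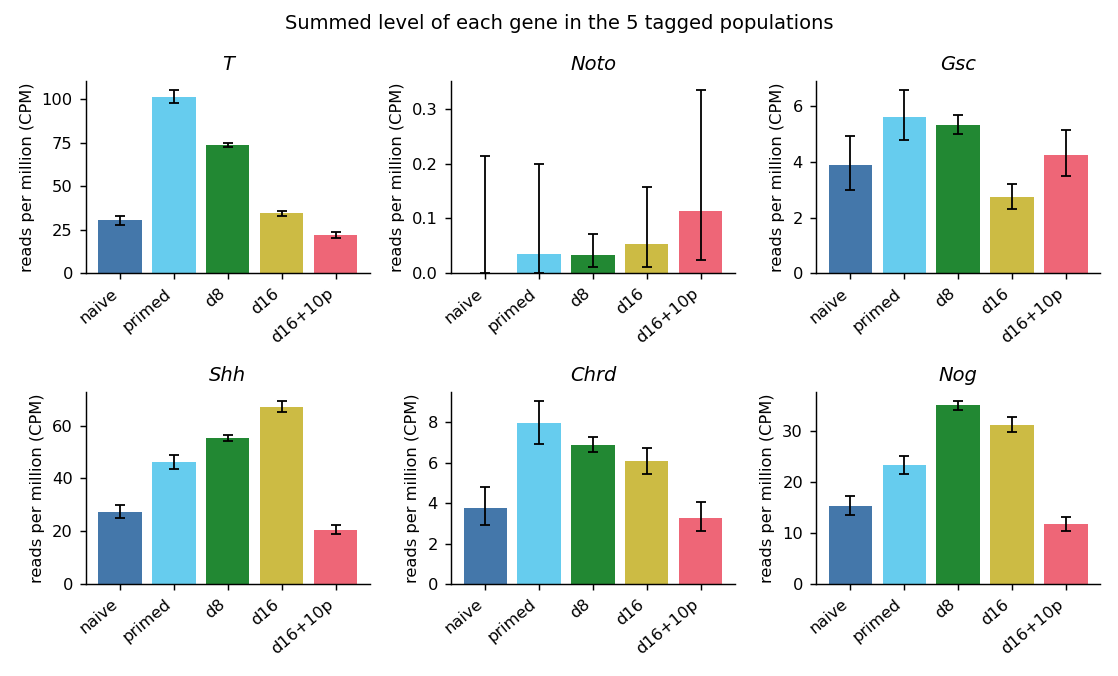
Summed level in reads per 1000000 reads (CPM, linear axes from 0) of each gene in the 5 populations, with bars for the level and lines for the exact 95% Poisson interval. T is highest in primed cells at 101.5 CPM and Shh in d16 cells at 67.2 CPM, while Noto is at most at 0.114 CPM.

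Reads of T, Shh, Nog, Chrd and Gsc were also present in cells that should lack these genes, while Noto had none there. Cluster 8 (940 cells, median 17394.5 reads) had all 8 fixed macrophage markers, among them Lyz2 and Cd68, at least 2-fold above the other cells, and is called macrophage-like. In it T was at 14.9 CPM, Shh at 16.5, Nog at 9.7, Chrd at 2.7 and Gsc at 1.6. With every cell thinned to 5000 reads, T was detected in 6.51% of macrophage-like cells (exact binomial interval 4.92 to 8.40) and Shh in 7.47% (5.77 to 9.47). Without thinning the shares were 17.3% and 17.4%.

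Set against these shares, the thinned detection of T was 9.69% of naive cells (7.64 to 12.1), 19.2% of primed (17.2 to 21.2), 12.9% of d8 (12.2 to 13.6), 8.51% of d16 (7.64 to 9.46) and 7.02% of d16+10p cells (5.57 to 8.71). Naive, d16 and d16+10p thus overlapped the macrophage-like cells. For Shh the shares were 17.2% of d16 (16.0 to 18.4), 12.03% of d8, 11.8% of primed, 8.59% of naive and 7.67% of d16+10p cells, so naive and d16+10p overlapped the macrophage-like cells and d16 was highest. Unthinned, T reads were found in 24.97%, 29.1%, 23.4%, 15.8% and 21.3% of cells, from naive through primed, d8 and d16 to d16+10p. Cells with 10 or more T reads made up 4.87% of primed and 4.72% of d8 cells, but 1.498% of naive, 1.13% of d16+10p and 1.09% of d16 cells.

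In the cores of the naive and reverted populations, levels of 4 of the genes were within this range. T was at 17.1 CPM in naive cells of cluster 11 (14.9 to 19.5) and 16.9 in d16+10p cells of cluster 7 (15.2 to 18.7), and Shh at 14.3 and 18.6 CPM. Nog was at 9.2 and 9.7 CPM and Chrd at 3.2 and 2.8. For these 4 genes the intervals overlapped the macrophage-like interval. Gsc was at 3.7 CPM (2.7 to 5.0) and 4.3 CPM (3.5 to 5.3), above 1.6 CPM (1.1 to 2.3) in the macrophage-like cells. In primed cells of cluster 12, T was at 130.6 CPM (124 to 138) and Chrd at 5.3 CPM (3.9 to 6.9), above the macrophage-like intervals. Shh at 17.5, Nog at 9.7 and Gsc at 2.3 CPM overlapped them.

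Populations were compared by the log2 ratio of their CPM, each raised by 1 CPM, and a gene was counted as higher or lower when it differed at least 2-fold. Of d8 against primed, 0 of the 5 genes above 1 CPM passed in either direction, beside 2.91% of 17936 genes higher and 2.68% lower. T was lower in d8 by a log2 ratio of -0.45 (-0.51 to -0.39), Nog higher by 0.57 (0.46 to 0.68) and Shh higher by 0.25 (0.17 to 0.34). Against the primed cells of cluster 12 alone, an alternative chosen after seeing the data, Shh was higher by 1.60, Nog by 1.74 and T lower by -0.81. The shares above are not for this reference, so these values are given without a count past 2-fold.

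Of d16 against d8, 1 of 5 genes was lower and 0 higher, beside 3.02% of 18539 genes lower and 9.36% higher. T had a log2 ratio of -1.08 (-1.14 to -1.01), which was short of 2-fold at -0.91 with a pseudocount of 10 CPM. Gsc was at -0.76 (-0.95 to -0.58), Shh at 0.28 (0.22 to 0.33), Nog at -0.16 and Chrd at -0.16.

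Of d16+10p against d16, 2 of 5 genes were lower and 0 higher, beside 10.1% of 18468 genes lower and 2.03% higher. These were Shh at a log2 ratio of -1.66 (-1.79 to -1.54) and Nog at -1.35 (-1.51 to -1.18). T was at -0.63, Chrd at -0.72 and Gsc at 0.49 (0.21 to 0.77). Of d16+10p against naive, 0 of 5 passed in either direction, beside 0.91% of 17798 genes higher and 0.832% lower, with T at -0.45, Shh at -0.39 and Nog at -0.36. The comparisons share populations and are not independent.

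Most T and Shh reads of d8 came from a single small cluster. Cluster 10 held 706 cells (median 12572.5 reads), 588 of d8, 68 primed, 29 d16, 13 naive and 8 d16+10p. The d8 cells of this cluster were 6.1% of d8 and carried 71.2% of its T reads (70.4 to 71.9) and 64.6% of its Shh reads (63.6 to 65.5), but 17.0% of its Nog, 8.15% of its Chrd and 1.97% of its Gsc reads. Neither gene was used to form the cluster, but it was picked for its T level, the highest of all clusters. Its high T level is therefore partly a result of this choice.

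Over all 706 cells, T was at 1090 CPM in cluster 10, against 136 in the next of the 15 clusters with at least 100 cells (cluster 12) and a median of 20.1. Shh was at 740 CPM, against 142 in cluster 3 and a median of 19.3. Nog was also highest there, at 126 CPM, followed by 55.5 in cluster 3, 53.3 in cluster 4 and 45.2 in cluster 1.

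The label of notochord was checked with 8 markers fixed for it. In cluster 10 only 4 were at least 2-fold above the other cells, T, Shh, Foxa1 at 217 CPM and Sox9 at 270 CPM. Of these, T gives no separate check, since the cluster was picked by it. Noto had 1 read in it, Foxj1 was at 3.5 CPM and Foxa2, a regulator of node and notochord, at 9.1 CPM with a log2 ratio to the other cells of 0.37. Chrd was at 12.1 CPM with a log2 ratio of 0.88. Because Noto, Foxj1, Foxa2 and Chrd were not 2-fold above the other cells, the cluster is called T- and Shh-high and not notochord. Sox5 and Sox6, outside the 8 markers, are given below for the d8 cells of this cluster. Its leading genes by fold were T, Lrrn3, Shh, Col2a1, Tshr, Pomc, Loxl4, Samd3, Car3 and Sema3d, of which Col2a1 encodes the main collagen of cartilage and of the notochord sheath.

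**Figure D2:**
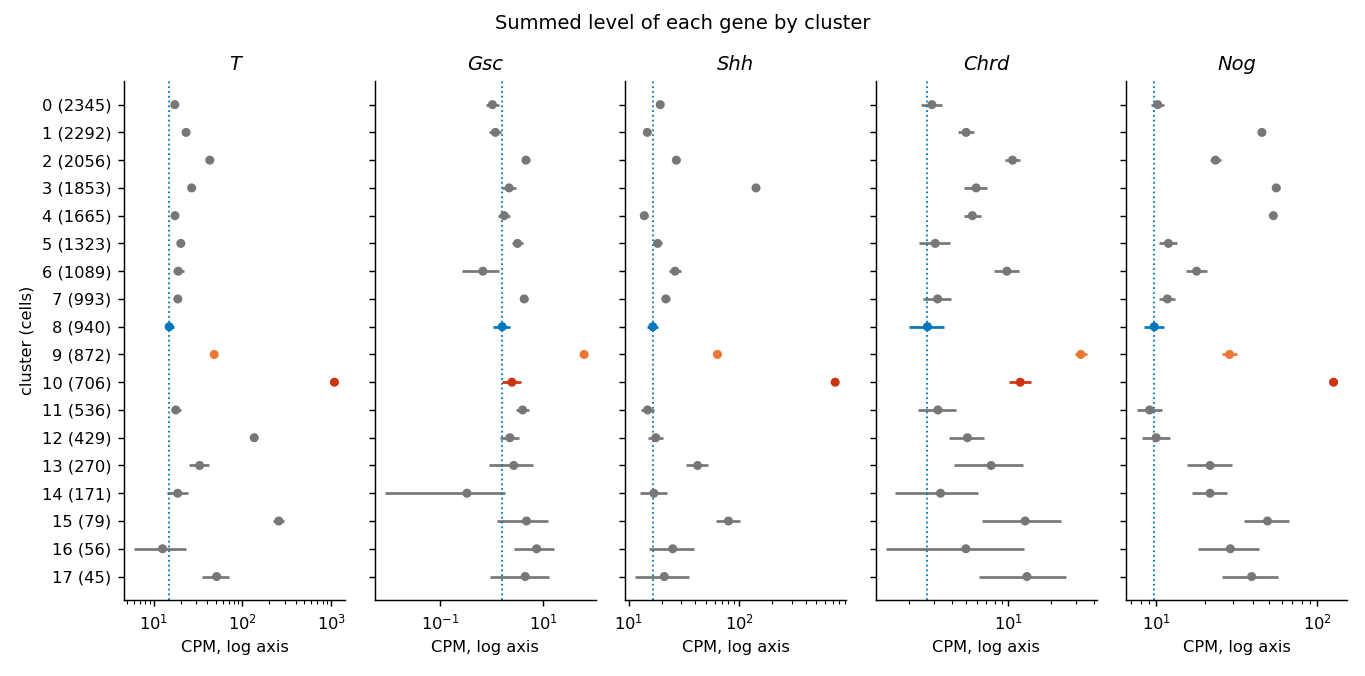
Summed level in CPM (log axes) of 5 of the genes in each of the 18 clusters, with the number of cells in parentheses, points for the level and lines for the exact 95% Poisson interval. Cluster 10 (red) stands at 1090 CPM of T and 740 of Shh, cluster 9 (orange) at 63.0 CPM of Gsc, and the dotted line marks the macrophage-like cluster 8 (blue).

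The T- and Shh-high cells were found under each tag. T was at 1110 CPM in the d8 cells of cluster 10, 1120 in its primed cells, 1250 in its naive, 1084 in its d16+10p and 685 in its d16 cells, and Shh at 753, 720, 869, 772 and 515 CPM, so d16 was lowest for both genes. The 13 naive cells of cluster 10 held 35.6% of all T reads of the naive tag and 27.7% of its Shh reads. The 68 primed cells held 30.1% and 42.6%, and the 8 d16+10p cells 16.3% and 12.4%. Outside the cluster T was at 73.0 CPM in primed, 28.2 in d16, 22.4 in d8, 19.8 in naive and 18.4 in d16+10p cells. Whether cells of this kind under the naive and d16+10p tags belonged to those populations was not tested.

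Leaving out cluster 10, chosen after seeing the data, turned 2 of the ratios above. T in d16 against d8 moved from -1.08 to 0.32, and Shh in d8 against primed from 0.25 to -0.39. T in d8 against primed moved from -0.45 to -1.66, and Shh in d16 against d8 from 0.28 to 1.57.

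Gsc and Chrd were highest in another cluster. Cluster 9 held 872 cells (median 11937 reads), 710 of them d8, and was led by Pga5, Cfc1, Cer1, Lhx1 and Dkk1, with Gsc among its leading 10 genes. It had 7 of 9 endoderm markers at least 2-fold above the other cells, and 3 of 8 notochord markers. Among the 15 clusters with at least 100 cells, Gsc was at 63.0 CPM there, against 4.7 in the next, and Chrd at 32.5 CPM against 12.1 in cluster 10. Cluster 9 was picked for this Gsc level, the highest of the 15. The d8 cells of cluster 9, 7.4% of d8, held 68.1% of its Gsc reads (65.1 to 71.1) and 28.0% of its Chrd reads (25.5 to 30.6). Foxa2 was at 59.5 CPM in cluster 9, T at 47.95 and Shh at 63.6 CPM.

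The Shh reads of d16 lay mostly in other cells. Cluster 3 held 1853 cells (median 8107 reads), 1661 of d16, and was led by Fabp7, a gene of radial glia, Hepacam2 and Rfx4. Its d16 cells, 38.5% of d16, held 65.6% of the Shh reads (64.1 to 67.1) and 56.6% of the Nog reads of d16, with Shh at 138 CPM and T at 26.1 CPM. Of the 8 notochord markers, Shh, Foxa1, Sox9, Foxj1 and Foxa2 were at least 2-fold above the other cells, and T and Noto were not. Nog in d8 came chiefly from cluster 1 (29.9% of reads) and cluster 4 (29.04%). These were large clusters, with 2028 and 1521 of the 9627 d8 cells. Cluster 1 had 6 of 8 epithelial and cluster 4 had 6 of 8 smooth muscle markers raised.

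**Figure D3:**
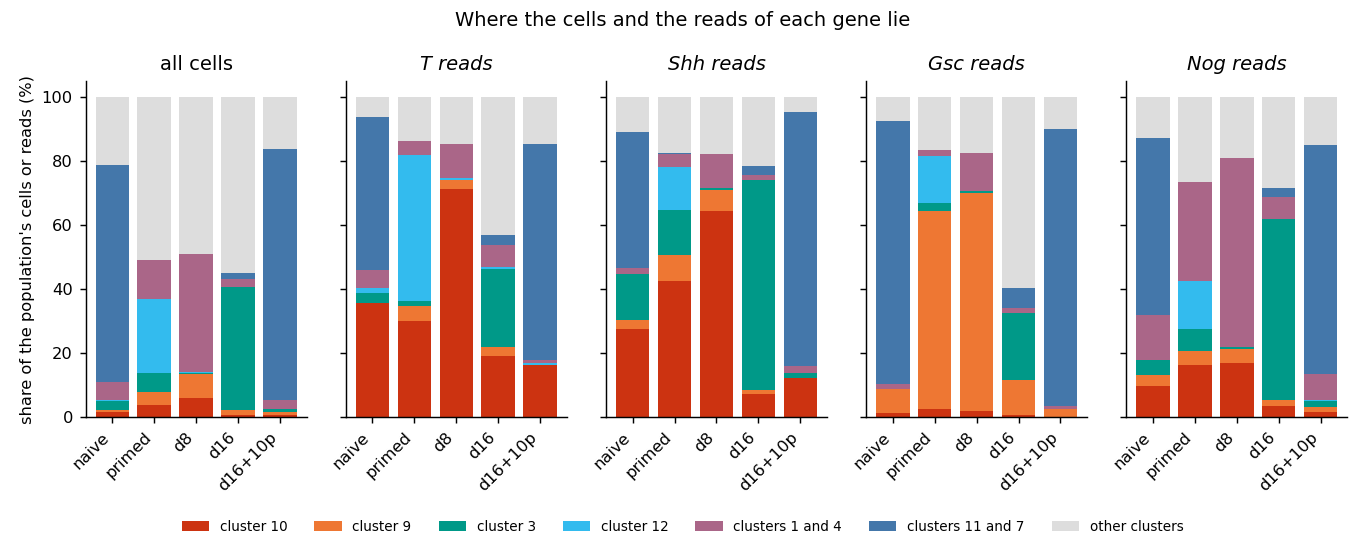
Share of each population's cells and of its T, Shh, Gsc and Nog reads by cluster, stacked to 100%. In d8, cluster 10 (red) is 6.1% of the cells and 71.2% of the T reads, and cluster 9 (orange) 7.4% of the cells and 68.1% of the Gsc reads. In d16, cluster 3 (green) holds 65.6% of the Shh reads.

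The number of T reads per read of Shh was 1.47 in cluster 10 (1.43 to 1.52). Clusters 1 at 1.57 (1.42 to 1.73) and 2 at 1.59 (1.45 to 1.74) overlapped it at far lower levels of both genes. The number was 7.72 in cluster 12 (6.60 to 9.08) and 0.188 in cluster 3 (0.171 to 0.206), and 0.903 in the macrophage-like cluster (0.765 to 1.07). Cluster 15, 79 cells of which 65 were d16, was led by Hp and Fgg, and held T at 257 CPM with 3.21 reads per read of Shh.

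T and Shh were next read together in single d8 cells. Of the 2252 d8 cells with a T read, 919 also had a Shh read, or 40.8% (38.8 to 42.9), against 16.4% of d8 cells without T reads (15.6 to 17.3). This was 1.85 times the number that the product of the 2 shares gives, 498 cells. With all cells thinned to 5000 reads, which left out 755 d8 cells, the shares were 45.5% (42.6 to 48.4) and 7.09% (6.53 to 7.68), and the ratio to the product 3.78. With at least 3 reads of each gene, 494 cells had both, 7.88 times the product. Cells are not replicates, so these are descriptions of 1 culture.

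Because detection of any gene goes with the depth of a cell, d8 cells were divided into 5 bins of equal size by their total reads. Among the shallowest (3183 to 7975 reads), 46.0% of cells with T reads had Shh reads, against 7.52% of those without. The difference was smaller in each deeper bin, and in the deepest (27476 to 111822 reads) the shares were 37.0% (33.3 to 40.8) and 30.9% (28.4 to 33.5), which overlapped. The ratio to the product was 3.83 in the shallowest bin and 1.12 in the deepest.

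**Figure D4:**
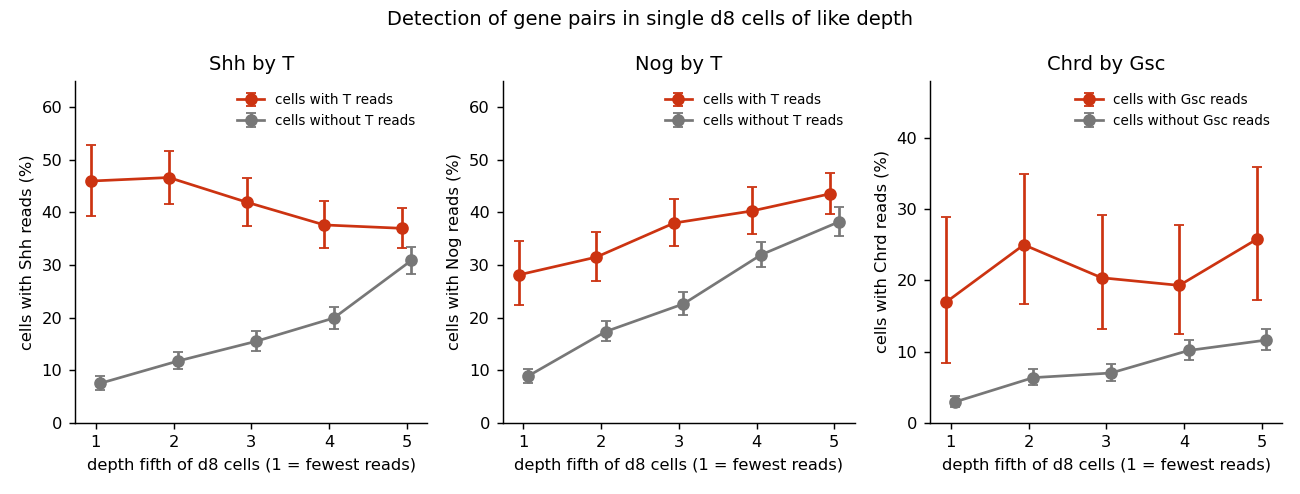
Share of d8 cells with reads of the second gene among cells with (red) and without (grey) reads of the first, in 5 bins of d8 cells from the fewest to the most reads, with exact 95% binomial intervals. For Shh by T the shares are 46.0% and 7.52% in the shallowest bin and approach each other in the deepest, at 37.0% and 30.9%.

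The cells with both genes lay mostly in cluster 10. It held 496 of the 919 cells with a read of each (54.0%), 417 of the 494 with at least 3 (84.4%) and 194 of the 218 with at least 10 (89.0%). Of its 588 d8 cells, 97.1% had a T read and 65.5% at least 10, and 85.0% had a Shh read and 41.8% at least 10. The median d8 cell of cluster 10 had 13 T reads (quartiles 7 and 23, highest 71) and 7.5 Shh reads (2 and 16.25, highest 92). The 5 cells with most reads held 3.3% of the T reads of these cells and 5.2% of the Shh reads. Among the macrophage-like d8 cells, 4.01% had a read of both genes, and 1 of 822 had at least 10 of both.

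In d8 cells outside cluster 10 with thinned reads, 15.8% of cells with T reads had Shh reads (13.0 to 19.0), against 6.998% of the others (6.44 to 7.59), and the ratio to the product was 2.07. Of all 9039 d8 cells outside cluster 10, before thinning, 6153 had neither gene and 24 had at least 10 reads of both. Within cluster 10, T and Shh levels per cell varied together to a moderate degree, with Pearson's r 0.37 on log2 CPM and Spearman's rho 0.26 over 588 cells that share 1 library. No other pair of the 5 genes went past 0.15 in size there.

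**Figure D5:**
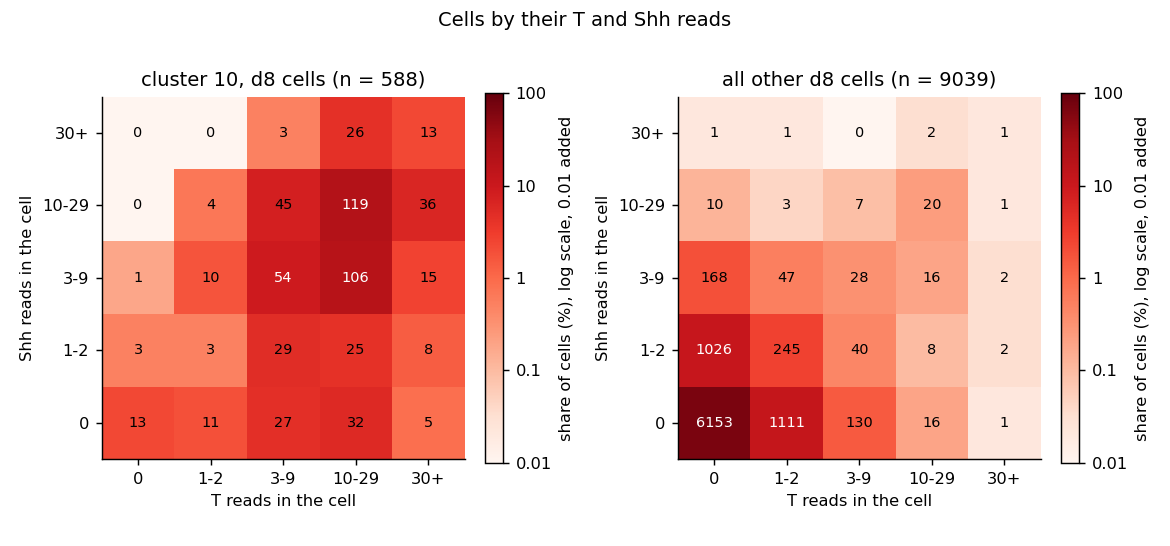
Number of d8 cells by their T reads (horizontal) and Shh reads (vertical), in cluster 10 and in all other d8 cells, with color for the share of cells on a log scale. In cluster 10 the fullest field is 10-29 reads of both genes, with 119 cells, and in the other cells it is 0 reads of both, with 6153.

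Other pairs were compared in the same way, 10 among the 5 detected genes. The pair with the largest ratio to the product after thinning was Chrd and Gsc, at 4.41, and T and Shh followed at 3.78. Chrd was found in 17.0% to 25.8% of d8 cells with Gsc reads over the 5 depth bins and in 2.95% to 11.6% of those without. Of the 102 d8 cells with a read of both, 77 (75.5%) were in cluster 9, and all 12 with at least 3 reads of both were. T and Nog were at 1.96 and Shh and Nog at 1.81. T and Gsc were at 0.61, with Gsc in 1.58% of cells with T reads (0.94 to 2.48) and 2.72% of those without (2.37 to 3.10). Nog and Gsc were at 0.68, and Chrd and Nog at 0.99. For the pairs of T and Gsc and of Nog and Gsc the intervals of the shares with and without the first gene overlapped, and before thinning their ratios were 0.97 and 1.10. Shh and Gsc were at 1.28, Shh and Chrd at 1.39 and T and Chrd at 1.14 after thinning. For these pairs, and for Chrd and Nog, the intervals of the thinned shares overlapped as well.

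After thinning, 67.7% of d8 cells had a read of none of the 6 genes, 23.1% of 1 gene, 6.56% of 2 and 2.60% of 3. In the d8 cells of cluster 10, 2.13% had none and 31.7% had 3, against 81.2% and 0.135% in the macrophage-like d8 cells. In cluster 9, 45.3% had none.

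Genes of other lists were read in the 919 d8 cells with T and Shh reads against the other 8708. These cells were deeper (median 17477 against 15253.5 reads), and T and Shh themselves chose them. Nog was higher by a log2 ratio of 1.19 (1.10 to 1.27), Chrd by 0.51 (0.31 to 0.71) and Gsc lower by -0.44 (-0.71 to -0.16). Of 13 measured companions of node and notochord, 4 were at least 2-fold higher and 0 lower, beside 1.28% and 0.142% of 17639 genes. They were Foxa1 (99.9 against 16.0 CPM, log2 ratio 2.57), and Sox9 (1.19), Sox5 (1.99) and Sox6 (1.62), the factors of cartilage and notochord sheath. Foxa2 (0.29), Foxj1 (-0.02), the switch for motile cilia, and Nodal (-0.01) were not. The median of the list was 0.39, against -0.003 over all genes tested.

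Genes of the BMP pathway were compared between the d8 cells with T and Shh reads and the other d8 cells. Of 17639 genes, 1.28% were 2-fold higher there and 0.142% lower. Of 12 other BMP antagonists 1 passed 2-fold, Sostdc1 (5.7 against 1.9 CPM, log2 ratio 1.204), and of 14 ligands and receptors 1, Bmp5 (37.9 against 10.0 CPM, 1.82). Of 10 BMP targets 0 passed, with Id1 at 0.43 and Smad6 at 0.59. Of 14 measured genes of the hedgehog pathway 0 passed. Its targets Ptch1 and Gli1 were at 0.32 and 0.40, and the co-receptor Cdon, which helps cells bind the ligand, at 0.95. Of 10 genes of the primitive streak and 12 of the anterior mesendoderm, 0 passed. In the d8 cells of cluster 10, which are fewer and were grouped with the help of these genes, 3 of 10 streak genes were lower than in the other d8 cells, Lefty2 (-2.19), Fgf8 (-1.77) and Wnt3 (-1.21), and 4 of 12 anterior genes, Lefty1 (-2.70), Cxcr4 (-1.67), Sox17 (-1.52) and Lhx1 (-1.198), beside 6.59% of 17973 genes. In the same d8 cells of cluster 10, 2 of 14 hedgehog genes were higher and 0 lower, Cdon (1.61) and Disp1 (1.203), with Ptch1 at 0.81. Of 10 BMP targets Smad6 was higher (1.28) and Hand1 lower (-1.15). Of 12 antagonists 3 were higher and 4 lower, and of 15 ligands and receptors 2 were higher and 2 lower. Among all 17973 genes 3.96% were higher. In the d8 cells of cluster 9, 11 of 12 anterior genes were higher, among them Cer1 (5.43), Lhx1 (5.12) and Dkk1 (4.98), beside 3.34% of 18328 genes. These values describe the clusters, with no test.

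The 10 other genes with the largest ratio in cells with both reads, among those of at least 50 CPM in either group, were Pomc (186 against 11.4 CPM, log2 ratio 3.91), Lrrn3 (69.3 against 3.7, 3.89), Col2a1 (486 against 46.6, 3.36), Tshr (51.4 against 4.7, 3.21), Car3 (2.74), Hsd17b7 (2.67), Foxa1 (2.57), Limch1 (2.52), F5 (2.33) and Gpc3 (2.29). Pomc is the precursor of the melanocortins and Tshr the receptor of thyrotropin. Col2a1 was detected in 93.2% of the d8 cells of cluster 10 and Pomc in 32.8%, so Pomc reads came from fewer of these cells. Pomc and Car3 were higher still in cluster 15, at 2391 and 4456 CPM, against 449 and 1342 in cluster 10.

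Across populations, the same lists were read by tag, without regard to T or to the core clusters. In d8 against primed, 4 of 11 streak genes were lower and 0 higher, Fgf8 (-1.26), Wnt8a (-1.88), Evx1 (-1.25) and Cdx2 (-2.11), with a median of -0.56 against -0.04 over all genes and beside 2.68% of genes lower. Both measured proteases that cleave chordin, Bmp1 (1.14) and Tll1 (1.45), were higher, beside 2.91% of genes, as were 3 of 13 BMP antagonists, among them Grem1 (1.74) and Bmper (1.24), with Sost lower at -1.53. Of 14 BMP ligands and receptors Bmpr1b was higher (1.28), and of 10 BMP targets Hand1 (1.47). Of the 13 companions, 12 anterior and 16 hedgehog genes 0 passed, with Ptch1 at -0.998, just short of the limit.

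In d16 against d8, the ligand Shh differed by 0.28 with cluster 10 included, and without that cluster it was more than 2-fold higher, as given above. With all cells, 3 of 16 hedgehog genes were at least 2-fold higher. Among them were Ptch1 (83.1 against 26.5 CPM, 1.61) and Hhip (1.18), both targets and inhibitors of the pathway. For these genes no ratio without cluster 10 is given. Of all genes 9.36% were higher and 3.02% lower, which is the background of each count here. Gli1, another target, was at 0.57. Of 13 companions 5 were higher, Foxj1 (1.81), Rfx3 (1.60), Foxa1 (1.37), Bicc1 (1.2003) and Cthrc1 (1.15), and Cfc1 lower (-1.44), with a median of 0.83 against 0.07 over all genes. Of 12 anterior genes 4 were lower, Cer1 (-1.58), Dkk1 (-1.43), Lefty1 (-1.36) and Lhx1 (-1.35). Of 10 BMP targets 4 were higher, Msx1 (2.18), Id4 (1.61), Id1 (1.59) and Id2 (1.17), and Hand1 lower (-1.23). Of 12 antagonists 4 were lower, among them Grem1 (-1.92) and Bmper (-1.54), and Sostdc1 was higher (1.07). Of 12 streak genes 4 were higher, Cdx1 (3.14), Fgf4 (1.72), Sp5 (1.35) and Wnt3a (1.28), and Fgf8 lower (-1.21). Of 15 ligands and receptors Bmp5 (1.98) and Smad9 (1.03) were higher and Bmpr1b lower (-1.40), and of the proteases Tll1 was lower (-1.48).

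In d16+10p against d16, 9 of 13 companions were lower and 0 higher, among them Foxa1 (-2.30), Rfx3 (-2.06) and Foxj1 (-1.83), and 5 of 10 BMP targets, among them Id1 (-2.32) and Msx1 (-2.17), beside 10.1% of all genes lower. Also lower were 4 of 15 hedgehog genes, 5 of 12 antagonists, 3 of 12 anterior genes, 2 of 15 ligands and receptors and 1 of 12 streak genes, with 2 streak genes higher, Fgf4 (1.76) and Lefty2 (1.16), beside 2.03% of all genes. Against naive, where 0.91% of 17798 genes were higher and 0.832% lower, few genes of any kind passed. In that comparison d16+10p had 0 genes past 2-fold in the companion, hedgehog, anterior, protease, ligand and receptor, antagonist and target lists. Of 10 streak genes 1 was lower, Cdx1 (-1.38). From the sums of a population alone, fewer cells of a kind and less RNA of a gene per cell cannot be told apart. Cluster 3, with Foxa1 at 141 CPM and Foxj1 at 34.1, held 1661 of 4315 d16 cells. It held 48 of 9627 d8 and 12 of 1151 d16+10p cells. Its part in the differences between these populations was not tested.

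The genes whose level over the 15 clusters was most like each member were ranked by Pearson's r of log2 CPM among 16066 genes, as a description of clusters that share 1 library. T was most like Col2a1 (r = 0.90), Tgtp1 (0.90) and Hsd17b7 (0.88). Shh was most like Dipk2a (0.96), Foxa1 (0.94), Ism1 (0.93) and Pomc (0.92). Nog was most like Cdon (0.93), Il18 (0.91) and Pik3ip1 (0.89). Gsc was most like Mixl1 (0.90), Cfc1, Car4 and Gckr (0.89 each), and Chrd like Golm1 (0.93), Adamts9 (0.91) and Optc (0.91). Between members, r was 0.77 for T and Shh, 0.71 for Shh and Nog, 0.67 for Chrd and Gsc, 0.17 for T and Gsc and 0.03 for Nog and Gsc. Foxa2 had an r of 0.86 with Chrd, 0.71 with Gsc and 0.37 with T.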

How the data were processed

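Read counts per gene symbol and cell were used as deposited. Per the study's methods, the authors trimmed reads with cutadapt 2.10, mapped them with Bowtie2 2.3.4.1 to Ensembl transcripts of GRCm38.p6, removed barcodes below the knee, took each cell's population from its strongest tag and removed doublets by the tag ratio. No molecular identifiers were collapsed as far as described. All rows held whole numbers. No further cell filter was applied, and no further doublets were removed, since Scrublet at its own threshold marked none. Removing the 5% of cells with the highest scores was an alternative.

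Counts were summed per population or cluster and scaled to 1000000 reads (CPM). Sums have exact Poisson intervals, shares Clopper-Pearson intervals and log2 ratios intervals joined from the Poisson limits of both sums, all at 95%. Only the ratio intervals were tried on simulated data, which were Poisson draws for genes of at least 50 CPM. Such draws cover neither lower genes nor the dependence of amplified reads. A gene entered the 2-fold counts when one of the groups compared had 1 CPM or more, and 1 CPM was added before logs. With 1 sample per population no test was made. Cells were thinned to 5000 reads (1767 shallower cells left out). Clusters came from Seurat 5.3.0 in R 4.3.3 (2000 variable genes without the members, 56 components, 50 neighbours, resolution 0.8) and TMM factors from edgeR 4.0.16. Positions are from GENCODE M21, matched by symbol.

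Named genes are the members, the genes of the lists past 2-fold, the 10 largest ratios in cells with T and Shh reads (at least 50 CPM and 100 reads, without mitochondrial genes) and the 5 genes most like each member, of which the first 3 or 4 are printed. A few list genes short of 2-fold (Foxa2, Foxj1, Nodal, Id1, Smad6, Ptch1, Gli1, Cdon) were named after their values were seen. Members, lists and rules were chosen with earlier results of these data known. The library of tags alone was not analysed here. Some genes of the lists are counted but not reported here by name.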

Additional observations from a re-analysis of the deposited data

How the results depend on the processing

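Of 227 values recomputed under alternatives, 154 stayed within their counting interval or within 1.5 times a count, 71 moved and 2 reversed. The 2 reversed without cluster 10, an alternative chosen after seeing the data, T in d16 against d8 at 0.32 and Shh in d8 against primed at -0.39. Without it T in d8 against primed was at -1.66, Shh in d16 against d8 at 1.57, and T and Shh in d16+10p against naive at -0.10 and -0.13. With the primed core as reference T was at -0.81 and Shh at 1.60. As the mean CPM per cell, T was at -0.084 (d8 against primed), -1.54 (d16 against d8), -0.19 (d16+10p against d16) and -0.70 (d16+10p against naive), and Shh at 0.11 (d16 against d8) and -0.64 (d16+10p against naive). Thinned to 5000 reads, T was at -0.16, -1.60 and -0.22 in the first 3 of these and Shh at 0.068 in d16 against d8. With TMM scaling T was at -0.39, -1.17 and -0.48, and Shh at 0.18 and -1.51 in d16 against d8 and d16+10p against d16. Without the 5 cells richest in the gene T was at -0.39, -1.16 and -0.81, and Shh at 0.36 in d8 against primed and -1.84 in d16+10p against d16. Without the 5% highest Scrublet scores T was at -1.25 (d16 against d8) and -0.76 (d16+10p against naive), and Shh at -1.96 (d16+10p against d16) and -0.78 (d16+10p against naive).

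Adding 10 CPM before logs, T was at -0.91 in d16 against d8 and -0.48 in d16+10p against d16, and Shh at -1.34 there. The genes past 2-fold, higher and lower, were then 191 and 119 (d8 against primed, otherwise 522 and 481), 450 and 197 (d16 against d8, otherwise 1735 and 560), 120 and 496 (d16+10p against d16, otherwise 374 and 1870) and 34 and 24 (d16+10p against naive, otherwise 162 and 148). The number of d8 cells with T and Shh reads over the product of their shares was 7.88 at 3 reads of each, 3.78 after thinning, 2.01 without the 10% deepest cells and 1.40 outside cluster 10. The share of T cells with Shh reads was 60.5% at 3 reads, 45.5% after thinning and 25.2% outside cluster 10. With the 6 genes allowed for clustering, 3 of them were among the variable genes used. The cluster highest in T and Shh then held 73.8% of d8 T and 67.8% of d8 Shh reads. The causes of these moves were not tested. With 1 sample per population, no alternative measures the spread between cultures. No paired analysis was possible because each population was 1 sample.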
